A study of Mus musculus with 8 samples.

Results

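The Mir200 and Mir141 family comprised 5 mouse miRNA genes, Mir200a, Mir200b, Mir429, Mir200c and Mir141, out of 2202 miRNA genes searched. Reads of 20 to 24 nt were assigned to a gene when their sequence was found exactly, on the sense strand, in the gene's GENCODE hairpin transcript, and each read was placed on the 5p or 3p arm by whether its middle lay before or after the hairpin's midpoint. Small RNA had been sequenced from male mouse Primordial Germ Cells (mPGCs) of 3 stages (E12.5, E13.5, E15.5) and from Day 6 (D6) mPGC-Like Cells (mPGCLCs), with 2 libraries per group and 8 in all. The mPGCs carried the GOF18 transgene, an Oct4 (Pou5f1) promoter reporter driving EGFP in germ cells, and came from genital ridges of male embryos, with no treatment named. Each mPGC library pooled 2 embryos, with different litters for the 2 replicates. The mPGCLCs came from 1 male embryonic stem cell line, SGET, with the Stella-GFP and Esg1-tdTomato reporters on a B6CBA/129 background, after 6 days of induction with cytokines, and were sorted as Stella-GFP positive and Esg1-tdTomato negative cells. The labels give C57BL/6J and a sort on SSEA1 and CD61 for the mPGCs, whereas the study's methods give a mixed FVB/C57BL/6J background and a sort on EGFP. Line, strain, sort and culture therefore cannot be told apart in any contrast of SGET cells with mPGCs.

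Libraries held 7447873 to 26552524 mapping reads, of which 301643 to 4195075 were 20 to 24 nt miRNA reads. miRNA reads took 12.8 to 24.8% of mapping reads in the 6 libraries of the E12.5, E13.5 and SGET groups, but 2.22 and 1.89% at E15.5. Shares of miRNA reads and shares of all mapping reads therefore part at E15.5, and both are given for the family, its 4 main arms and the chromosome 4 cluster. The summed germline and pluripotency miRNAs (the Mir290 to Mir295 and Mir302 clusters) took 12.9 to 36.8% of miRNA reads in every library, while the 2 erythroid markers were at 0 in 6 libraries and at 1.99 and 16.9 reads per 1000000 miRNA reads (RPM) in the others. Other markers were higher. In replicate 2 of E15.5 a mesenchymal list reached 11658 RPM and Mir202, known from gonadal somatic cells, 3083 RPM (lists given further on).

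The family is encoded at 2 places. In GRCm38, Mir200b (chr4:156055681-156055750), Mir200a (chr4:156054896-156054985) and Mir429 (chr4:156053905-156053987) lie within 1846 bases on the minus strand of chromosome 4. All 3 are inside the gene bodies of Ttll10 and the noncoding gene Gm13648 on the same strand, Mir429 overlapping an exon of Gm13648 and the other two in introns. Mir200c (chr6:124718322-124718390) and Mir141 (chr6:124717914-124717985) lie within 477 bases on the minus strand of chromosome 6, inside the noncoding gene Gm15884, with Mir141 also overlapping an exon of the unconfirmed model Gm29008. A miRNA pairs with target mRNAs mainly through its seed, bases 2 to 8. The family is known for repressing Zeb1 and Zeb2, repressors of the adhesion gene Cdh1 (E-cadherin), and so for holding cells in an epithelial state.

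The RefSeq mature sequences (GRCm38) of the 3p arms, which carried nearly all family reads, are shown with the seed in capitals because the family splits into 2 seed groups that differ at 1 base.
Mir200c-3p: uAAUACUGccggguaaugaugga
Mir200b-3p: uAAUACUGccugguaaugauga
Mir429-3p: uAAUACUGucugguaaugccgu
Mir200a-3p: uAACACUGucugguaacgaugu
Mir141-3p: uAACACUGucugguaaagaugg

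Mir200b-3p, Mir200c-3p and Mir429-3p share the seed AAUACUG, and Mir200a-3p and Mir141-3p share AACACUG. Seed groups cut across the clusters, since each cluster encodes both seeds. Counted from 1 at the 5′ end over the first 22 bases, Mir200b-3p differs from Mir200c-3p by U11G and A22G, and Mir200a-3p differs from Mir141-3p by C17A and U22G. Mir200a-3p and Mir200b-3p, from the same cluster, differ by C4U in the seed and by U9C, C17U and U22A. None of the 34 distinct member sequences found in the libraries matched a second gene.

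The whole family took 0.478 and 0.378% of miRNA reads at E12.5, then 0.216 and 0.231% at E13.5, then 0.162 and 0.110% at E15.5, with 1.08 and 1.22% in SGET D6 mPGCLCs. The 4 groups did not overlap, with SGET cells highest, then E12.5, E13.5 and E15.5. The ratio of group means was 0.522 ± 0.0898 (propagated SD, n = 2 per group) for E13.5 over E12.5, 0.607 ± 0.167 for E15.5 over E13.5, 0.317 ± 0.100 for E15.5 over E12.5 and 2.68 ± 0.502 for SGET over E12.5. Per 1000000 mapping reads, the family was at 613 and 780 at E12.5, then 314 and 492 at E13.5, then 35.9 and 20.8 at E15.5, with 1721 and 3028 in SGET cells. The order of the groups was the same on that scale, but the E15.5 over E12.5 ratio was 0.0407, in libraries where all miRNA reads together also took a smaller part of mapping reads. With 2 libraries against 2, an exact two-sided permutation test cannot go below p = 0.333, so no test is given for these sums.

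Of the 10 arms, 8 had reads. Mir429-5p and Mir200c-5p had none in any library, where 3 reads would be 0.715 to 9.95 RPM. Of the arms with reads, 6 passed the filter on low counts and were tested with edgeR's quasi-likelihood test among 512 arms of all miRNAs (Mir200c-3p, Mir200b-3p, Mir429-3p, Mir200a-3p, Mir200b-5p and Mir200a-5p). Both Mir141 arms had too few reads to be tested.

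**Figure D1:**
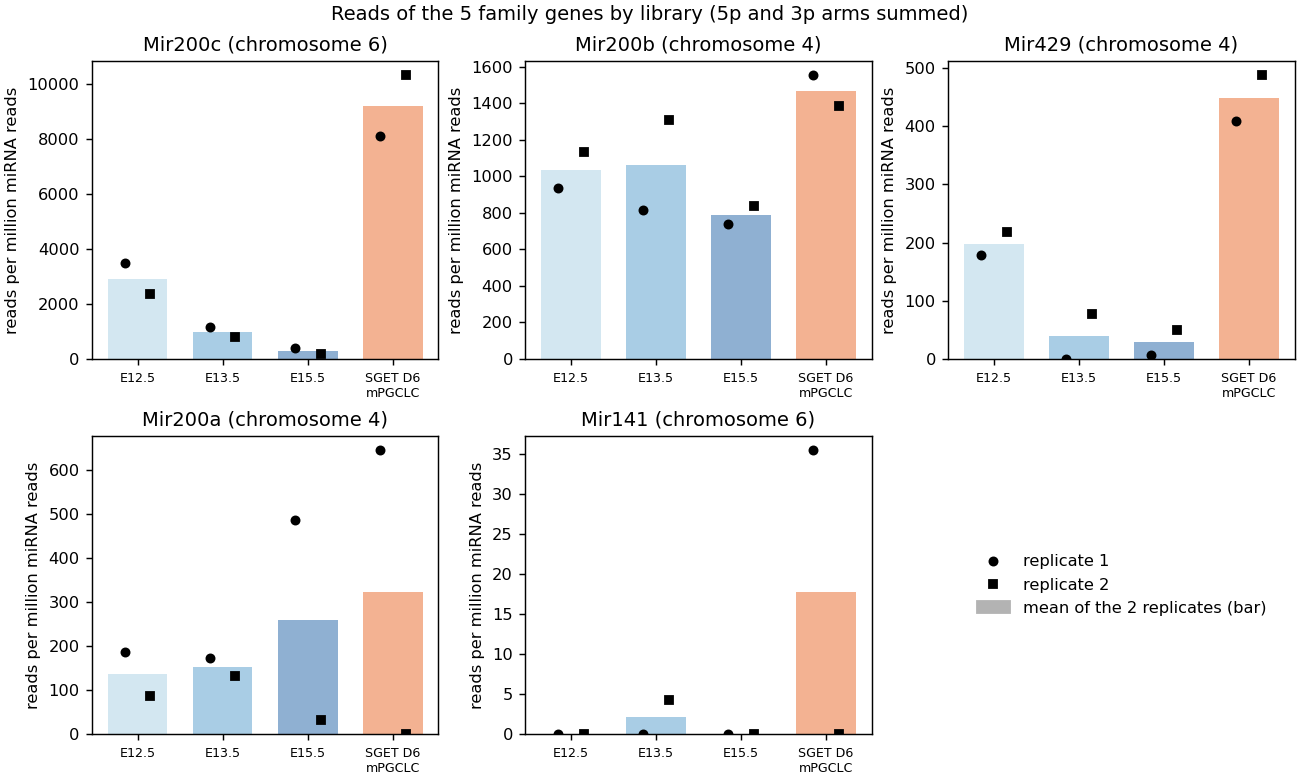
RPM of each family gene over miRNA reads (y axis, linear, a different range in each panel) in the 4 groups (x axis). Circles and squares are replicates 1 and 2 and bars their mean. Mir200c ran from 177 in an E15.5 library to 10323 in an SGET library, whereas Mir200b stayed between 739 and 1553 in all 8.

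Mir200c-3p was the most abundant member at E12.5 and in SGET cells. It had 3483 and 2349 reads per 1000000 miRNA reads (RPM) at E12.5, then 1166 and 791 at E13.5, then 385 and 177 at E15.5, with 8109 and 10323 in SGET cells. No 2 groups overlapped, and the order was SGET, E12.5, E13.5 and E15.5. Per 1000000 mapping reads it had 446 and 484 at E12.5, then 170 and 168 at E13.5, then 8.53 and 3.35 at E15.5, with 1298 and 2563 in SGET cells, and the E15.5 over E12.5 ratio was 0.0128 against 0.0964 over miRNA reads. With the tailed reads described further on added, the order without overlap was kept, with 709 and 185 RPM at E15.5 and 3859 and 2675 at E12.5. Among 512 arms ordered by group mean it stood 49th at E12.5, 98th at E13.5, 162nd at E15.5 and 25th in SGET cells. The E15.5 values rest on 116 and 89 reads, which give 0.0321 to 0.0461% and 0.0144 to 0.0218% of miRNA reads (95% Wilson intervals, counting error only).

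Mir200c-3p fell from E12.5 to E15.5 by 3.38 on the log2 scale (standard error 0.76, edgeR adjusted p = 0.00071). It was the only 1 of the 6 tested member arms called in that comparison, in which 7.03% of all arms tested were called, 2.54% lower and 4.49% higher. The call was lost without replicate 1 of E12.5 (log2 fold change -3.06, adjusted p = 0.069) and in a fit of these 2 groups alone (-3.38, adjusted p = 0.0707), and was kept in the other 10 alternatives. At each single step the value was lower in both libraries of the later stage, with log2 fold changes of -1.57 (standard error 0.71, edgeR adjusted p = 0.988) to E13.5 and -1.80 (standard error 0.72, edgeR adjusted p = 0.359) from there to E15.5, and neither passed. These steps had 0.977% and 0.391% of all arms called, all higher. The second step passed without replicate 1 of E15.5 (-2.46, adjusted p = 0.0129) and over all mapping reads (-4.83, adjusted p = 0.000662), a scale on which the median of all arms moved by -3.54.

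In SGET cells Mir200c-3p was 1.66 above E12.5 on the log2 scale (standard error 0.71), which did not pass the test in the fit of all groups (edgeR adjusted p = 0.132). It passed in 1 of 12 alternatives, a fit of the 2 groups alone (log2 fold change 1.66, adjusted p = 0.0359). That fit called 42 of 391 arms, 25 higher and 17 lower. In the fit of all groups 10.9% of all arms were called in this comparison, 2.93% higher and 8.01% lower.

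**Figure D2:**
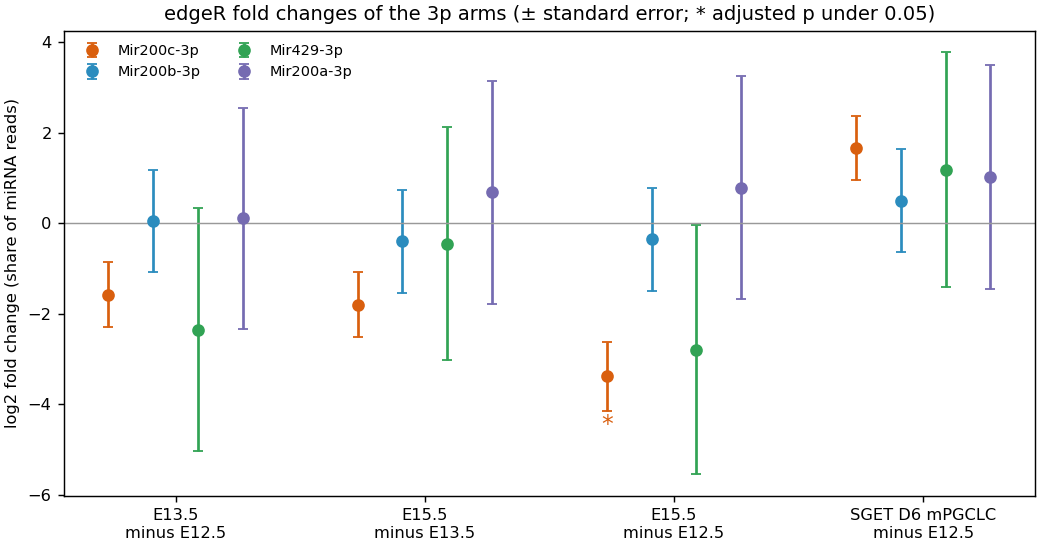
log2 fold change of the 4 main 3p arms (y axis) in the 4 comparisons (x axis). Bars are 1 standard error, derived from edgeR's F statistic, and an asterisk marks an adjusted p under 0.05. Mir200c-3p alone carries an asterisk, at -3.38 in E15.5 minus E12.5, and Mir200b-3p lies within 0.50 of 0 in every comparison.

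Mir200b-3p, with the same seed as Mir200c-3p, lay within a narrower range. It had 902 and 1092 RPM at E12.5, then 817 and 1243 at E13.5, then 736 and 823 at E15.5, with 1553 and 1256 in SGET cells. The E13.5 values enclosed those of E12.5, E15.5 was below both E12.5 libraries, and SGET was above them. Its log2 fold changes were 0.05, -0.40, -0.35 and 0.49 in E13.5 minus E12.5, E15.5 minus E13.5, E15.5 minus E12.5 and SGET minus E12.5, with standard errors of 1.13 and edgeR adjusted p of at least 0.857. At such an error a change of the size seen for Mir200c-3p at a single step was not detectable for this arm. Per 1000000 mapping reads it had 116 and 225 at E12.5, then 119 and 264 at E13.5, then 16.3 and 15.6 at E15.5, with 249 and 312 in SGET cells.

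Mir429-3p, the third member with the AAUACUG seed, had 178 and 218 RPM at E12.5, then 0 and 77.5 at E13.5, then 6.63 and 49.8 at E15.5, with 409 and 488 in SGET cells. Both later stages were below E12.5 in every library, and SGET cells were above E12.5. Its log2 fold change was -2.80 (standard error 2.75, edgeR adjusted p = 0.712) from E12.5 to E15.5 and 1.18 (standard error 2.59, edgeR adjusted p = 0.844) in SGET cells over E12.5. The E15.5 libraries held 2 and 25 reads of it. Per 1000000 mapping reads it had 22.8 and 44.9 at E12.5, then 0 and 16.5 at E13.5, then 0.147 and 0.942 at E15.5, with 65.4 and 121 in SGET cells.

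Mir200a-3p, with the other seed, differed widely between replicates. It had 185 and 87.0 RPM at E12.5, then 174 and 119 at E13.5, then 444 and 25.9 at E15.5, with 555 and 0.423 in SGET cells. In the second SGET library this was 1 read, against 907 in the first, although the 2 libraries held similar numbers of Mir200b-3p reads (2971 and 2539). Per 1000000 mapping reads it had 23.8 and 17.9 at E12.5, then 25.3 and 25.4 at E13.5, then 9.85 and 0.490 at E15.5, with 88.8 and 0.105 in SGET cells, so that both E15.5 libraries were the lower ones among the mPGCs on that scale. No comparison of Mir200a-3p passed (edgeR adjusted p at least 0.864), and its direction changed with the library left out.

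Mir141-3p had 58 exact reads in replicate 1 of SGET, 1 in replicate 2 of E13.5 and none in the other 6 libraries. Replicate 2 of E12.5 held 200 tailed reads of it (described further on). Mir141 and Mir200c come from the same 477 bases, yet replicate 2 of SGET held 24416 Mir200c-3p reads and no exact Mir141-3p read. The 0 there allows up to 1.27 RPM (3 counts).

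Over the 6 tested arms, no overlap with a lower level at E15.5 than at E12.5 was seen for 4 (Mir200c-3p, Mir200b-3p, Mir429-3p and Mir200b-5p) and with a higher level for Mir200a-5p, beside 28.1% of all arms tested lower and 14.8% higher. In SGET cells 3 arms lay above E12.5 without overlap (Mir200c-3p, Mir200b-3p and Mir429-3p) and none below, beside 22.1% and 30.3% of all arms. From E12.5 to E13.5 there were 2 below (Mir200c-3p and Mir429-3p), beside 17% of all arms lower and 17.6% higher. From E13.5 to E15.5 there was Mir200c-3p alone below, beside 19.7% of all arms lower and 12.1% higher. These counts are over exact reads and are descriptions of arms that passed a filter. Replicate 2 of E12.5 held 71 tailed Mir200a-5p reads and no exact one, so the place of this arm holds for exact reads only. In the 3 comparisons other than E15.5 minus E12.5, edgeR called none of the 6 arms, with 1 at an unadjusted p under 0.05 in each (Mir200c-3p), and DESeq2 called none.

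The 5p arms, the strands released opposite the 3p arms, were rare. The 3p arms took 96.4 to 100% of family reads in the 8 libraries. Mir200b-5p had 33.5 and 38.5 RPM at E12.5, then 0 and 66.7 at E13.5, then 3.32 and 15.9 at E15.5, with 0 and 130 in SGET cells. Over exact reads, Mir200a-5p was at 0 in both E12.5 libraries and reached 90.5 in replicate 1 of SGET, while Mir141-5p had 17 reads in replicate 2 of E13.5 and none elsewhere. Replicate 2 of E12.5 held 71 tailed Mir200a-5p reads (described further on), each with 1 added A, and replicate 1 held none. By exact reads, presence of a 5p arm differed between replicates in the E13.5 and SGET pairs, and not in the E12.5 and E15.5 pairs. With tailed reads counted, presence of Mir200a-5p differed between the E12.5 replicates too.

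Counted over exact reads, the chromosome 4 cluster held a larger share of the family at each later mPGC stage. With tailed reads added, E12.5 and E13.5 overlapped, and E15.5 stayed above both. The chromosome 4 cluster, summed over both arms of its 3 genes, had 1299 and 1435 RPM at E12.5, then 990 and 1519 at E13.5, then 1233 and 921 at E15.5, with 2607 and 1874 in SGET cells. On this scale the mPGC stages overlapped except that both E15.5 libraries were below both E12.5 libraries. Per 1000000 mapping reads it had 166 and 296 at E12.5, then 144 and 323 at E13.5, then 27.4 and 17.4 at E15.5, with 417 and 465 in SGET cells, so that E15.5 lay apart from both earlier stages, with a ratio of 0.0968 to E12.5. The chromosome 6 cluster was Mir200c-3p but for 18 Mir141 reads in replicate 2 of E13.5 and 58 in replicate 1 of SGET, and followed the values of that arm given above. Within the family, the chromosome 4 cluster held 27.2 and 37.9% of reads at E12.5, then 45.9 and 65.6% at E13.5, then 76.2 and 83.8% at E15.5, with 24.3 and 15.4% in SGET cells. This share needs no outside denominator, and its group means were 32.5 ± 7.61, 55.8 ± 13.9, 80.0 ± 5.39 and 19.8 ± 6.28% (SD, n = 2). Over exact reads the 3 mPGC stages did not overlap, and SGET cells lay below E12.5. With reads carrying unmatched 3′ bases (described further on) added, the share was 22.7 and 33.0% at E12.5, then 32.4 and 56.3% at E13.5, then 57.5 and 80.7% at E15.5, with 25.9 and 15.4% in SGET cells. E12.5 then overlapped with both E13.5 and SGET cells, while both E15.5 libraries were above both E13.5 libraries, by little in replicate 1. Whether Mir200c-3p and the chromosome 4 arms changed by different amounts was not tested.

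**Figure D3:**
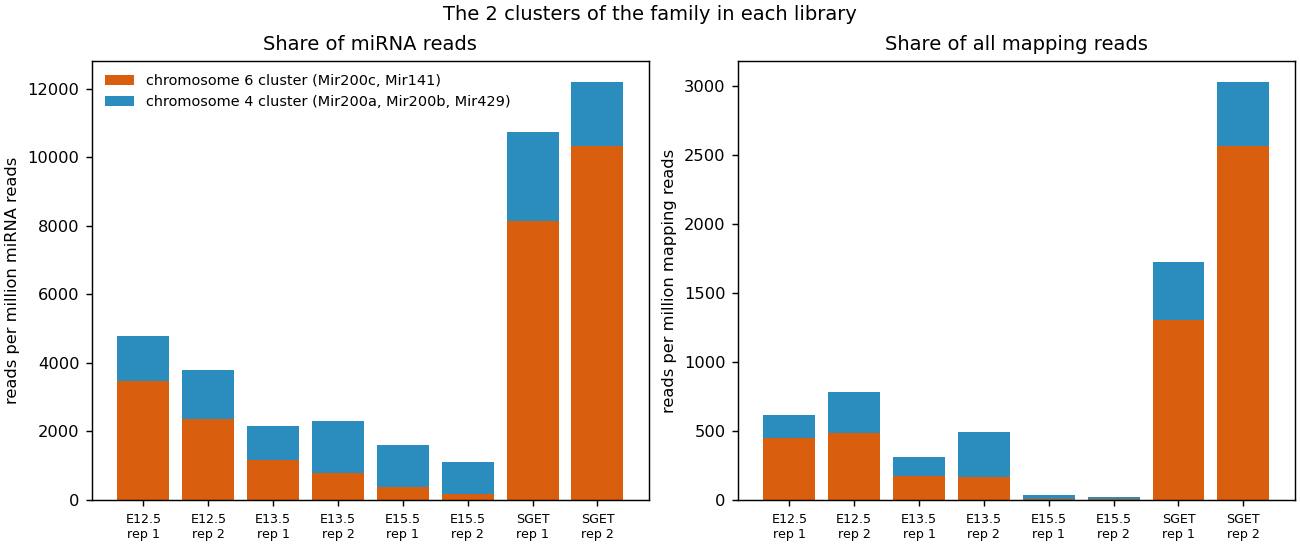
Stacked bars of the chromosome 6 (orange) and chromosome 4 (blue) clusters in each of the 8 libraries (x axis), as reads per 1000000 miRNA reads (left) and per 1000000 mapping reads (right, both axes linear). The orange part shrinks from 3483 and 2349 at E12.5 to 385 and 177 at E15.5 on the left, and both parts are small at E15.5 on the right.

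Mir200c-3p and Mir200b-3p share a seed, and counted by gene, whatever the start of the read, the 3 genes with AAUACUG made up 96.1 and 97.7% of 3p family reads at E12.5, then 91.9 and 94.6% at E13.5, then 71.7 and 97.6% at E15.5, with 94.5 and 100% in SGET cells. The low value, in replicate 1 of E15.5, came with 134 reads of Mir200a-3p among 474 (95% Wilson interval of the share 67.5 to 75.6%).

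Each arm was made of few distinct sequences, and the most abundant ones are shown as read from the files, as DNA with bases 2 to 8 of the read in capitals, because they set which end the counts rest on.
Mir200c-3p: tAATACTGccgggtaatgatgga
Mir200b-3p: tAATACTGcctggtaatgatgac
Mir429-3p: tAATACTGtctggtaatgccgt
Mir200a-3p: tAACACTGtctggtaacgatgtt
Mir141-3p: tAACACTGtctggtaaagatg

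The leading Mir200c-3p and Mir429-3p reads equal the RefSeq mature sequences and took 76.0 and 97.6% of their arms over all libraries. The leading Mir200b-3p and Mir200a-3p reads, at 76.8 and 52.3%, are 1 base longer at the 3′ end than RefSeq's, and that of Mir141-3p is 1 base shorter. RefSeq's form made up 62.9 to 99.8% of Mir200c-3p reads and 0.139 to 31.3% of Mir200b-3p reads in the 8 libraries. Counting mature forms alone therefore weights Mir200c, and the E15.5 over E12.5 ratio of the family was then 0.185.

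A start shifted by 1 base changes the seed, and the share of such reads differed between libraries. In replicate 2 of E15.5, 309 of 413 Mir200b-3p reads (74.8%) began 1 base downstream, as below, with AUACUGC in seed position. In replicate 1 of E13.5 and of E15.5 the same shift was carried by 140 of 305 and 63 of 134 Mir200a-3p reads, with ACACUGU in seed position.
Mir200b-3p shifted: aATACTGCctggtaatgatgac
Mir200a-3p shifted: aACACTGTctggtaacgatgtt

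The shifted Mir200b-3p read was otherwise seen only in replicate 2 of E13.5 (33 reads), and the shifted Mir200a-3p read in no other library. Mir200c-3p kept RefSeq's start in 93.4 to 100% of its reads in the 8 libraries, with 181, 112 and 56 reads starting 1 base downstream in replicate 1 of E12.5 and the 2 SGET libraries. Starts 1 base upstream were seen in 39 and 311 reads at E12.5 and in 193 of replicate 1 of SGET. Replicate 2 of E13.5 held 19 of them and replicate 2 of E15.5 held 1. In replicate 2 of E12.5, 75 reads began 2 bases downstream.

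Libraries held 9 to 19 distinct family sequences each. Counting each sequence once per library, 80 had 10 or more reads and 36 had 1 to 9. In replicate 1 of E13.5, 2044 of 2048 Mir200c-3p reads and 1431 of 1434 Mir200b-3p reads were a single sequence, and the 177 and 244 Mir200a-3p reads at E12.5 were all the same sequence. Such steps of presence and absence went with replicate correlations of 0.699 to 0.799 (Pearson, log2 shares of all arms). The part of low RNA input or amplification in these steps was not tested.

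**Figure D4:**
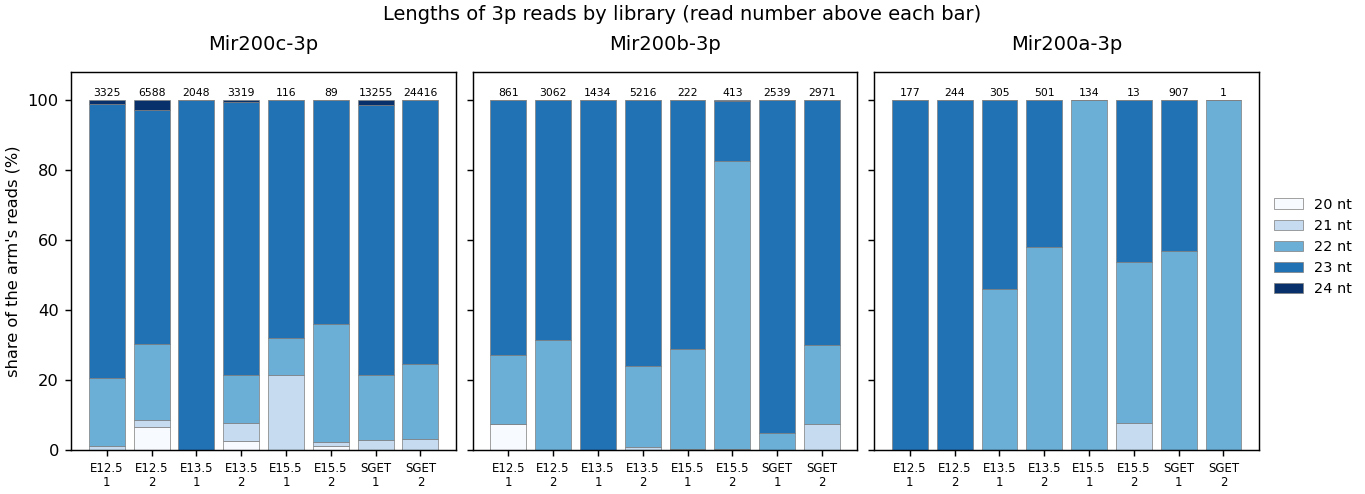
Share of reads of 20, 21, 22, 23 and 24 nt (stacked, y axis in %) among Mir200c-3p, Mir200b-3p and Mir200a-3p reads in the 8 libraries (x axis), with the number of reads above each bar. Mir200c-3p is mostly 23 nt in every library, and Mir200b-3p is mostly 23 nt except in replicate 2 of E15.5, where 82.3% was 22 nt.

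Reads that matched a member over at least 18 bases and then ended in 1 to 3 further bases were counted apart, up to a length of 26 nt. Only the first of these bases had to differ from the hairpin. A mismatch near the 3′ end was therefore counted too, as in 73 Mir200b-3p reads ending in GC. Added 3′ bases, mostly A or U, are a common modification of miRNAs. The leading form of Mir200c-3p, Mir200b-3p and Mir141-3p is shown with the added base in capitals.
Mir200c-3p + A: taatactgccgggtaatgatggaA
Mir200b-3p + A: taatactgcctggtaatgatgacA
Mir141-3p + A: taacactgtctggtaaagatggcA

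Of all Mir200c-3p reads, 28.4 and 29.8% were of this kind at E12.5, then 43.8 and 38.0% at E13.5, then 58.0 and 24.6% at E15.5, but 7.16 and 6.47% in SGET cells. Each mPGC library was above both SGET libraries. The same held for the summed reads of all miRNAs outside the family. Their values were 20.0 to 22.5% in mPGCs and 17.2 and 17.1% in SGET cells. How often single arms outside the family kept this order was not tested. Whether the gap between the groups was wider for Mir200c-3p was not tested. The single added A shown above accounted for 6390 Mir200c-3p reads over all libraries. Mir200b-3p did not share this order, with 8.89 and 15.7% at E12.5, then 0.347 and 9.68% at E13.5, then 0.893 and 6.35% at E15.5, with 22.4 and 10.1% in SGET cells.

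With these reads added, the family ratios were 0.519 for E13.5 over E12.5, 0.558 for E15.5 over E13.5, 0.289 for E15.5 over E12.5 and 2.28 for SGET over E12.5. The tailed Mir141-3p sequence shown had 199 reads, all in replicate 2 of E12.5, where the exact count was 0. Mapping had allowed 2 mismatches, so longer additions may be missing from the counts.

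**Figure D5:**
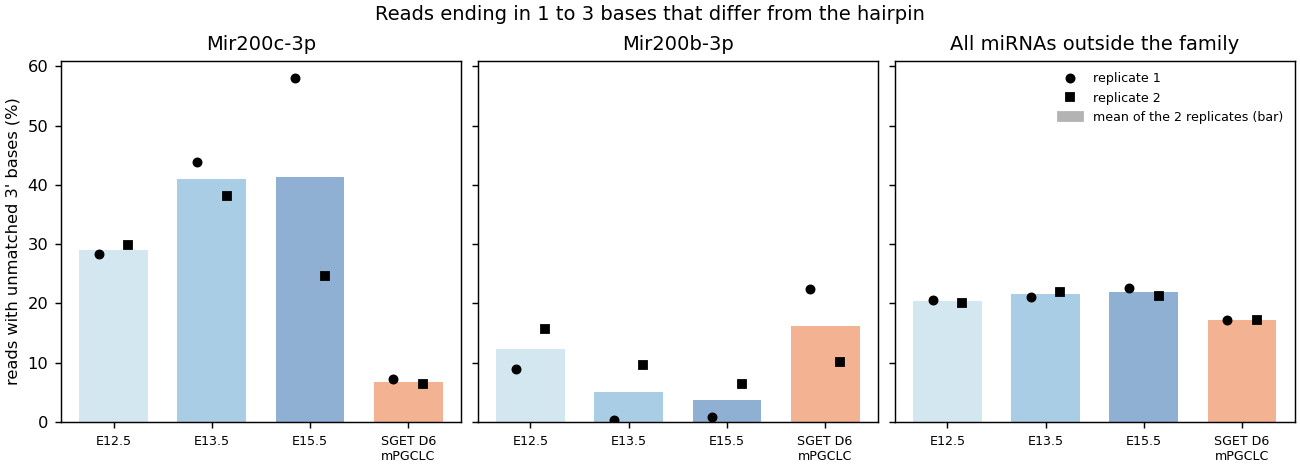
Percent of reads ending in 1 to 3 bases, the first of which differs from the hairpin (y axis), for Mir200c-3p, Mir200b-3p and all miRNAs outside the family in the 4 groups (x axis). Circles and squares are replicates 1 and 2 and bars their mean. Mir200c-3p was at 24.6 to 58.0% in mPGC libraries and at 6.47 and 7.16% in SGET libraries.

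The arms whose log2 shares followed the chromosome 6 cluster most closely over the 8 libraries, among 506 compared, were Mir292-5p (Pearson r = 0.996) and Mir292-3p (0.974), of the cluster known from pluripotent cells and early germ cells, and a joint feature of the Mir669a genes (0.968). Mir292-5p had 144120 and 123450 RPM at E12.5, then 111070 and 98029 at E13.5, then 73444 and 64688 at E15.5, with 179840 and 191220 in SGET cells. The order of the groups was that of Mir200c-3p over a narrower range. For the chromosome 4 cluster the closest were Mir291b-5p (0.858), Mir5113-5p (0.848) and Mir191-5p (0.821). Mir5113-5p had only 26.2 RPM in replicate 2 of E13.5, 105 and 112 in SGET cells and 0 in every other library. The points share their libraries and the 4 groups, and these values are descriptions.

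Other miRNAs that have been tied to epithelial to mesenchymal transition, those of Mir205, Mir203, Mir34a to Mir34c, the Mir30 genes and Mir101a and Mir101b, gave 18 tested arms. Between mPGC stages edgeR called none of the 18, with 0, 0 and 1 at an unadjusted p under 0.05, and DESeq2 called 1, 0 and 2 higher in E13.5 minus E12.5, E15.5 minus E13.5 and E15.5 minus E12.5. In SGET cells edgeR called 5 of the 18 lower than at E12.5 and none higher, beside 8.01% of all arms called lower. The median log2 fold change of the 18 was -1.81 against -0.40 over all arms. DESeq2 called 2 lower and 1 higher. Mir205-5p, also known as a repressor of Zeb1 and Zeb2, was at 269 and 29.2 RPM at E12.5, 1220 and 1339 at E15.5, but only 1.22 and 0.423 in SGET cells, and it fell by 7.42 in SGET cells (log2, standard error 2.31, edgeR adjusted p = 0.0153). Mir30c-5p, from Mir30c-1 and Mir30c-2 together, fell by 1.48 (standard error 0.39, edgeR adjusted p = 0.0023), and Mir30e-5p fell by 1.64 (standard error 0.49, edgeR adjusted p = 0.0098). Mir101b-3p fell by 3.09 (standard error 0.83, edgeR adjusted p = 0.0030).

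Lists of germline and other cell type markers differed beside the stage differences of Mir200c-3p. The germline and pluripotency list went from 30.1 and 29.3% of miRNA reads at E12.5 to 14.1 and 12.9% at E15.5, and 7 of its 21 tested arms were called lower, beside 2.54% of all arms. All 7 were arms of the Mir290 to Mir295 cluster. With TMM only 1 of all arms tested was called lower from E12.5 to E15.5. That arm was Mir200c-3p, so none of these 7 was called with TMM. Every tested Mir302 arm had a positive log2 fold change from E12.5 to E15.5. Mir367-3p, of the same list, had a negative one (-1.17, standard error 4.11). None of these arms was called. Mir302b-3p had 238 and 250 RPM at E12.5, then 693 and 1249 at E15.5. Mir302d-3p overlapped, with 300 and 166, then 169 and 628, and Mir302a-5p was at 0 and 379 at E15.5. Mir202, known from gonadal somatic cells, had 1163 and 845 RPM at E12.5, then 2513 and 3083 at E15.5, but none in SGET cells. The mesenchymal list (Mir143, Mir145a, Mir199a and Mir214) had 1743 and 1209 at E12.5, 4031 and 11658 at E15.5, with 5434 and 6675 in SGET cells, with 1 of 6 tested arms called higher at E15.5 than at E12.5, beside 4.49% of all arms. Endothelial Mir126a ran from 3.32 to 434, the leukocyte list from 0 to 448, and hepatic Mir122 from 0 to 530 with the high value in replicate 1 of E15.5. In these bulk samples fewer cells with the miRNA and less of it per cell cannot be told apart, and the part of other cells in the Mir200c-3p difference was not tested.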

How the data were processed

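Small RNA libraries were made with a low-input kit whose adapters end in 4 random bases. Per the methods, the authors merged the runs of a library, removed adapters and the random bases (cutadapt 3.2), aligned reads of 15 nt or more to GRCm38 with STAR 2.5.3a with up to 2 mismatches, and deposited the raw read count of each distinct mapping sequence, without normalization. HiSeq and NovaSeq runs are not told apart in the sources used here, and molecules were not counted, so intervals and floors (3 counts) cover counting error only.

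Sequences of 20 to 24 nt were matched exactly to GENCODE M21 miRNA transcripts, and sequences of several genes formed joint features. All 10 member arms had a RefSeq mature sequence. The 5 hairpins equal RefSeq's. The Mir200c transcript ends 2 nt after the mature 3p end, so longer templated reads were not counted. Shares were taken over miRNA reads and over all mapping reads. Arms passing filterByExpr (512) were tested with edgeR 4.0.16 in R 4.3.3 (glmQLFit and glmQLFTest), with the 4 groups in 1 fit, miRNA reads as library size and Benjamini-Hochberg adjustment over all arms (adjusted p under 0.05). DESeq2 1.42.0, TMM, other filters, lengths and library sizes, fits of 2 groups, a replicate block and leaving out each library were alternatives. Standard errors beside edgeR values are the absolute log2 fold change over the square root of the test's F statistic. The code was tested on simulated data. Replicates of a group shared identical values in at most 0.265% of arms and were counted as separate samples. Named genes were all members, the leading sequence of each arm, the 3 arms most like each cluster and up to 4 of the transition list. The shifted and tailed sequences, and the counts of tailed reads, were chosen after their values were seen. Members and lists were chosen with earlier results of these data known.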

Additional observations from a re-analysis of the deposited data

How the results depend on the processing

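With all mapping reads as library size the arms called among all miRNAs numbered 0, 86, 81 (1 higher, 80 lower) and 25 (9 higher, 16 lower) in E13.5 minus E12.5, E15.5 minus E13.5, E15.5 minus E12.5 and SGET minus E12.5, against 5, 2, 36 (23 higher, 13 lower) and 56 (15 higher, 41 lower) over miRNA reads. The median of all arms then moved by -3.54 and -3.39 in the comparisons of E15.5 with E13.5 and E12.5, against -0.34 and -0.31. DESeq2 called 9 (7 higher, 2 lower), 17 (14 higher, 3 lower), 45 (38 higher, 7 lower) and 103 (36 higher, 67 lower). TMM gave 4 in E15.5 minus E13.5 and 24 (23 higher, 1 lower) in E15.5 minus E12.5, single-gene sequences 3 in E13.5 minus E12.5, no filter 23 in E15.5 minus E12.5, and fits of 2 groups 1 in E15.5 minus E13.5, 22 in E15.5 minus E12.5 and 42 (25 higher, 17 lower) in SGET minus E12.5. Leaving out a library gave 2 to 6, 1 to 43, 7 to 65 and 31 to 43, with 43 and 65 without replicate 1 of E15.5, 5 without replicate 2 and 1 without replicate 1 of E13.5, 2 and 7 without replicate 1 of E12.5, 9 and 31 without replicate 2 of E12.5, 35 without replicate 1 of E12.5 and 32 without replicate 1 of SGET.

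The replicate numbers come from different litters and cultures, and deviations of same-numbered libraries over all arms correlated by 0.0305 to 0.121. Such values cannot tell whether same-numbered libraries shared a preparation or a run, which was not tested. Replicate 2 held more mapping reads than replicate 1 at each mPGC stage, and fewer in SGET cells. In every group Mir200a-3p was higher in replicate 1 and Mir429-3p in replicate 2. The replicate block gave 3, 2, 25 and 45 arms, and kept the Mir200c-3p call in E15.5 minus E12.5.

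The family ratio moved beyond its SD over mapping reads (0.0702 for E15.5 over E13.5, 0.0407 for E15.5 over E12.5 and 3.41 for SGET over E12.5) and with mature sequences alone (0.427, 0.433 and 0.185 in the 3 mPGC comparisons), always in the same direction. Leaving out a library gave 0.468 to 0.591, 0.491 to 0.724, 0.256 to 0.378 and 2.40 to 3.03. Adding tailed reads, an alternative chosen after seeing the data, kept each ratio within its SD. It brought the chromosome 4 share of the family at E15.5 from 80.0 to 69.1%, and kept that of the other groups within their SD.

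Mir200c-3p kept its direction in all 48 alternatives. Directions that turned were all of arms that did not pass. Mir200a-3p turned in E15.5 minus E13.5 (-2.29 over mapping reads, -0.84 with the block), in E15.5 minus E12.5 (-2.01 and -0.47) and in SGET minus E12.5 (-0.73 with the block), and with a library left out ran from -0.34 to 0.75, -2.50 to 1.60, -2.39 to 1.71 and -8.12 to 2.03 in the 4 comparisons. Mir200b-3p turned with DESeq2 (0.15 in E15.5 minus E13.5, 0.22 in E15.5 minus E12.5) and ran from -0.29 to 0.32 in E13.5 minus E12.5, and over mapping reads it passed in E15.5 minus E13.5 (-3.59, adjusted p = 0.0397). Mir429-3p turned in E15.5 minus E13.5 (0.17 with TMM, 0.30 with DESeq2, 0.059 with the block), with a range of -2.54 to 8.39. The cause of these changes was not tested. At E15.5 a member arm rested on at most 413 reads, which limits the precision there.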
